A study of Homo sapiens with 12 samples.

Results

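The cytosolic ribosomal protein genes encode the proteins of the ribosome that translates nuclear-encoded mRNA. They were followed here in 2 germ cell tumour lines treated with an inhibitor of the bromodomain protein BRD9. The genes were taken by symbol: RPL or RPS followed by a number, with or without a closing A or X, together with RPSA, RPLP0, RPLP1 and RPLP2. Of the 63241 genes counted, 77 met this rule, and all 77 had more than the required 100 counts summed over 12 libraries. They comprise 31 proteins of the small (40S) subunit and 46 of the large (60S) subunit, and FAU, whose product is split into a ubiquitin-like protein and a ribosomal protein, falls outside the rule.

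The lines were 2102 EP, an embryonal carcinoma line grown in DMEM, and TCam-2, a seminoma line grown in RPMI, both listed as wild type. Each received 15 µM I-BRD9, a small molecule that binds the BRD9 bromodomain, or its solvent DMSO, and the labels give 24 h as the time. There were 4 groups of 3 libraries: 2102 EP with DMSO, 2102 EP with I-BRD9, TCam-2 with DMSO and TCam-2 with I-BRD9. Each tumour type is represented by 1 line, and the medium differs between the lines. Total RNA was read from the 3′ ends of transcripts (Lexogen QuantSeq). The labels call the replicates biological without giving the origin of the cultures, so a p-value measures only the spread between these samples.

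A ribosome holds 1 copy of most of these proteins beside the ribosomal RNAs, and the genes, which lie scattered over the genome, are transcribed at high rates in dividing cells. Many of the mRNAs begin with a run of pyrimidines, the 5′ terminal oligopyrimidine (TOP) motif, through which mTORC1 and the binding protein LARP1 control their translation and stability. BRD9 is a subunit of a BAF-type chromatin remodelling complex (ncBAF).

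Libraries held between 7290335 and 10053366 estimated counts. In the embryonal carcinoma line with DMSO, replicate 2 was the highest of its 3 libraries in 70 of the 77 genes, so results in that line are also given without it. With I-BRD9, replicate 1 of the same line, the shallowest library, was the lowest in 38 genes and the highest in 26. The line labels were checked on marker genes: 5 embryonal carcinoma markers summed to 1629 to 1747 CPM (counts scaled to the library total, with TMM factors) in 2102 EP and 105 to 111 CPM in TCam-2 with DMSO, and to 434 to 479 CPM in 2102 EP with I-BRD9. The 5 seminoma markers summed to 122 to 201 CPM and 1353 to 1848 CPM in the same lines with DMSO, although LHX8 among them was higher in 2102 EP (3.41 CPM) than in TCam-2 (0.0393 CPM). Fibroblast markers came to at most 21.95 CPM in any library, nearly all of it COL1A1, blood markers to at most 0.545 CPM with CD3E at 0 counts throughout, and testis somatic markers to at most 11.2 CPM. BRD9 mRNA itself was 109, 100.2 and 123 CPM in 2102 EP with DMSO and 105, 89.6 and 83.1 CPM with I-BRD9, a log2 fold change of -0.26 ± 0.09 (adjusted p = 0.0328, lost without DMSO replicate 1 or 3 or I-BRD9 replicate 2 or 3, up to 0.177). In TCam-2 its change was -0.21 ± 0.09 (adjusted p = 0.0965), which did not pass.

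RefSeq promoter entries (GRCh38.p14) matched 62 of the 77 genes by symbol. A TOP-like start was searched for on the strand of the gene as an annotated first base that is C or T, with an unbroken run of at least 5 C or T that either covers that base or begins at most 5 bases after it. At least 1 such start was annotated for 49 of the 62 genes (79.0%), against 3748 of 27305 genes (13.7%) in the whole table. Counted by start, 50 of 77 starts of these genes held the run, against 3890 of 35116 starts (11.1%) in the table, and the runs were 5 to 25 bases long with a median of 12. Without the condition on the first base, a search added after seeing the data, 56 of the 62 genes (90.3%) and 7601 of the 27305 genes in the table (27.8%) had a start with such a run. The windows below show 15 bases before the annotated start and the first 15 transcribed bases, which belong to the 5′ untranslated part of the first exon, for genes whose values carry the results. The first 7 passed the test under I-BRD9 in both lines, and the other 5 are among those with the largest differences between the lines. Capitals mark the pyrimidine run.
RPL28: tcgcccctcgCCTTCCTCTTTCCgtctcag (chr19:55385917-55385946, plus strand)
RPL29: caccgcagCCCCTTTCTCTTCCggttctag (chr3:51995881-51995910, minus strand)
RPL24: ttcccatgaTTCTCTCTTTCTTTTCgccat (chr3:101686704-101686733, minus strand)
RPL21: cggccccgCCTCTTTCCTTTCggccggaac (chr13:27251543-27251572, plus strand)
RPS14: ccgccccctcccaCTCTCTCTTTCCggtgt (chr5:150449725-150449754, minus strand)
RPL6: ggggagacggcgcgtgcactgtgttcctgg (chr12:112409271-112409300, minus strand)
RPS26: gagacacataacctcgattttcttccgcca (chr12:56041903-56041932, plus strand)
RPLP2: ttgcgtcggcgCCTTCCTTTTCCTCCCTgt (chr11:809952-809981, plus strand)
RPS19: ggaaaccccgtcgTTCCCTTTCCCCTggct (chr19:41860240-41860269, plus strand)
RPS23: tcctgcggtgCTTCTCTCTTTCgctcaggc (chr5:82278340-82278369, minus strand)
RPL39: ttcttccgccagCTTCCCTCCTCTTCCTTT (chrX:119791616-119791645, minus strand)
RPL36A: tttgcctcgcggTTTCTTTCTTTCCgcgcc (chrX:101390996-101391025, plus strand)
RPL28, the gene that rose with I-BRD9, and RPL29, RPL24, RPL21 and RPS14, which fell, all have a run that meets the rule. RPL6 and RPS26, which also fell, have none that does: RPS26 does not begin with C or T at the annotated start, although a pyrimidine run follows in its window, and neither of the 2 entries of RPL6 has such a run. The genes shown that were higher in TCam-2 (RPLP2, RPS19, RPS23) and those that were lower (RPL39, RPL36A) all have one. Others that differed between the lines do not: RPS29, which was higher, and RPL27 and RPL32, which were lower, have no start that meets the rule. A run of letters is a description of the annotated start and says nothing of the start these cells use.

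Together the 77 genes took 11.8%, 13.0% and 11.5% of all counts in the 3 DMSO libraries of 2102 EP, and 11.5%, 12.2% and 11.7% after treatment. In TCam-2 the DMSO libraries gave 13.99%, 14.2% and 14.5%, and the I-BRD9 libraries 13.5%, 13.7% and 14.5%. By these unscaled shares the libraries of both treatments overlapped within each line, while every TCam-2 library lay above every 2102 EP library. The group means were 12.1% ± 0.80, 11.8% ± 0.39, 14.2% ± 0.26 and 13.9% ± 0.53 (SD, n = 3 each), a description over the chosen genes and not a test. Without DMSO replicate 2 the mean of 2102 EP with DMSO was 11.6%, below that of 2102 EP with I-BRD9. On the TMM scale the summed levels still overlapped in 2102 EP (118420, 132970 and 116498 CPM with DMSO, 113923, 117603 and 112184 CPM with I-BRD9). In TCam-2 they did not, with 144339, 148244 and 151142 CPM against 133738, 135586 and 140895 CPM, and neither did its summed 40S or its summed 60S levels. In 2102 EP the summed 40S levels overlapped, while the summed 60S levels lay at 69074 to 78318 CPM with DMSO and at 66896 to 68484 CPM with I-BRD9. The 40S genes accounted for 4.94%, 4.85%, 6.53% and 6.37% in the same order of groups, and the 60S genes for 7.15%, 6.95%, 7.70% and 7.50%. Transcripts encoded in mitochondria, which enter the same total, took 9.19%, 11.2%, 7.23% and 6.97%. Their part in the shares can be read from the totals without them, which gave 13.3%, 13.3%, 15.3% and 14.9%. In bulk RNA, fewer cells of a type and less RNA per cell cannot be told apart.

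**Figure D1:**
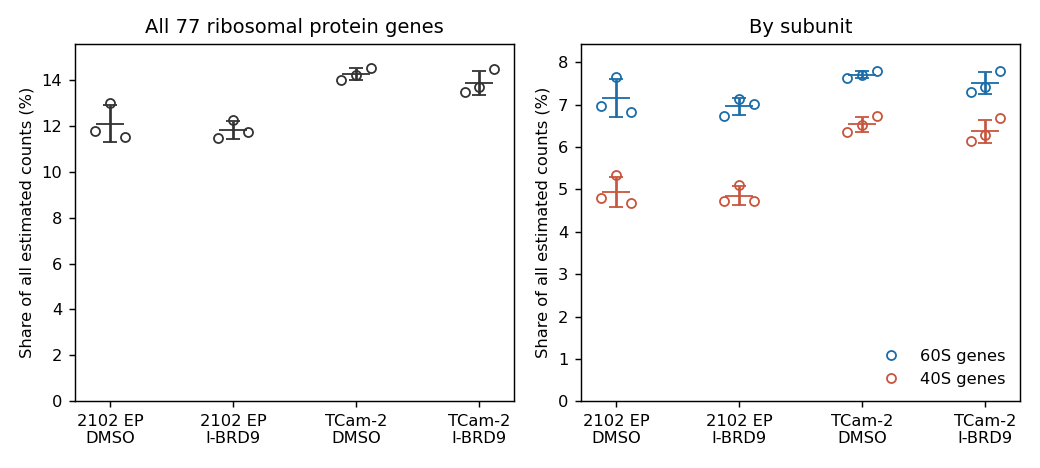
Share of all estimated counts (%) in the 77 ribosomal protein genes (left) and in the 40S and 60S genes (right), by group; circles are libraries, bars the mean and SD of 3 libraries. The TCam-2 libraries lie between 13.5% and 14.5% and the 2102 EP libraries between 11.5% and 13.0%.

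With I-BRD9 in 2102 EP, 1 of the 77 genes rose and 19 fell at an adjusted p under 0.05 (edgeR quasi-likelihood test, adjusted over all 15614 genes tested). That is 26.0% of them, against a background of 36.8% of all genes called in this comparison (18.2% higher and 18.6% lower). The log2 fold changes ran from -0.66 to 0.37 with a median of -0.13, and their SD over the 77 genes was 0.20, against 0.93 over all genes tested, whose median was 0.00. Over the 595 genes at least as abundant as the lowest of these genes, the 77 included, the median was also -0.13, and 34.6% fell while 13.6% rose. Of the 40S genes none rose and 4 of 31 fell (RPS14, RPSA, RPS24, RPS26), with a median of -0.10. Of the 60S genes RPL28 rose and 15 of 46 fell, with a median of -0.16. Groups did not overlap in 2 genes with higher and 25 with lower I-BRD9 libraries, against a background of 46.3% (23.1% higher and 23.2% lower). The 60S genes that fell were RPL27, RPL30, RPL29, RPL17, RPL10A, RPL23, RPL39, RPL6, RPL37, RPL35A, RPL24, RPL21, RPL38, RPL9 and RPL7.

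This count depends on single libraries and on scaling. Without replicate 2 of the DMSO group 5 genes fell, without replicate 1 of that group 11, and without replicate 1 of the I-BRD9 group 7, and the median over the 77 genes was then -0.08, -0.14 and -0.09. Upper-quartile scaling gave 2 higher and 10 lower with a median of -0.09 (0.04 over all genes), and the fit of the 6 libraries of the line alone gave 10 lower. DESeq2 called 26 lower and limma voom 27, with all 19 among them in both. RPL28, RPL29, RPL10A, RPL6 and RPS14 passed in each of the 21 alternatives run.

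In TCam-2, 1 of the 77 genes rose and 8 fell with I-BRD9, or 11.7% of them, against a background of 31.8% (15.3% higher and 16.5% lower). RPL28 was again the gene that rose, and RPL29, RPL24, RPL21, RPL6, RPS26, RPL32, RPS14 and RPL22 fell. The median was -0.14 (0.01 over all genes tested, -0.14 over the 595 abundant genes), the range -0.44 to 0.31, and the SD over genes 0.12. Of the 40S genes 2 fell and of the 60S genes 6 fell. The I-BRD9 libraries lay wholly above the DMSO libraries in 4 genes and wholly below in 30, against a background of 45.7% (22.9% higher and 22.8% lower). Leaving out a single library of the line gave 4 genes lower without replicate 1 or 2 of the I-BRD9 group and 5 without replicate 2 or 3 of the DMSO group. Leaving out a library of the other line also moved this count, to 18 without replicate 1 of 2102 EP with I-BRD9, and the cause was not tested. DESeq2 and limma voom each called 14 lower, the 6 libraries of the line alone 19, upper-quartile scaling 4, and the fit with no filter on low counts 5. RPL28, RPL29, RPL24 and RPL21 passed in all 21 alternatives.

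RPL28 (ENSG00000108107, chr19:55385345-55403250, plus strand), a 60S protein, stood at 511, 519.7 and 449 CPM in 2102 EP with DMSO and at 682, 623 and 606 CPM with I-BRD9. All I-BRD9 libraries lay above all DMSO libraries, and the log2 fold change was 0.37 ± 0.08 (adjusted p = 0.00102, at most 0.00764 in the alternatives). In TCam-2 it went from 777, 719 and 689.6 CPM to 913, 911 and 881 CPM, again without overlap, by 0.31 ± 0.08 (adjusted p = 0.00518, at most 0.0277).

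RPL29 (ENSG00000162244, chr3:51993522-51995942, minus strand), a 60S protein also described as heparin-binding, measured 353, 316 and 284 CPM in 2102 EP with DMSO and 224, 231 and 229.9 CPM with I-BRD9. In TCam-2 the libraries gave 336, 284 and 276 CPM and 224, 208 and 231 CPM. The I-BRD9 libraries were below the DMSO libraries in both lines, by -0.48 ± 0.09 (adjusted p = 0.000156) and -0.44 ± 0.09 (adjusted p = 0.000456). Its level did not pass between the lines (-0.09 ± 0.09 with DMSO, adjusted p = 0.388).

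RPL24, which forms part of a bridge between the subunits, was at 807, 892 and 758 CPM and 585, 706 and 745 CPM in 2102 EP, a change of -0.27 ± 0.09 (adjusted p = 0.0211). That call is lost without replicate 2 of the DMSO group or replicate 1 of the I-BRD9 group, or with the 6 libraries of the line alone (adjusted p up to 0.156). In TCam-2 the values were 841, 816 and 788 CPM and 654, 598 and 652 CPM, well apart, with a change of -0.36 ± 0.09 (adjusted p = 0.00337).

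RPL21 measured 775, 865 and 788 CPM with DMSO and 648, 714 and 692 CPM with I-BRD9 in 2102 EP. Its change there was -0.24 ± 0.08 (adjusted p = 0.0153; lost without replicate 2 of the DMSO group or replicate 1 of the I-BRD9 group, adjusted p up to 0.0915). In TCam-2 it went from 897, 844 and 873 CPM to 742, 705 and 705 CPM, a change of -0.28 ± 0.08 (adjusted p = 0.00626). The treatment groups did not overlap in either line.

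RPL6, a 60S protein whose count is shared with many pseudogene copies, was at 2656, 3067 and 2672 CPM and 2127, 2414 and 2228 CPM in 2102 EP (-0.31 ± 0.08, adjusted p = 0.00366). In TCam-2 it was at 2596, 2599 and 2663 CPM and 2278, 2170.4 and 2171 CPM (-0.25 ± 0.08, adjusted p = 0.0196). The I-BRD9 libraries were again the lower ones in both lines, and the call in TCam-2 is lost without DMSO replicate 3 or I-BRD9 replicate 2 or 3 (adjusted p up to 0.0662).

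RPS14, a 40S protein of the platform and the gene tied to the 5q- syndrome, had 2418, 2550.3 and 2196 CPM and 2001, 1952 and 1979 CPM in 2102 EP (-0.27 ± 0.08, adjusted p = 0.00682). In TCam-2 it had 1930.4, 1864 and 1868 CPM and 1664, 1658 and 1576 CPM (-0.21 ± 0.08, adjusted p = 0.038). Groups were apart in both lines, but the TCam-2 call is lost when any 1 of the 6 libraries of that line is left out (adjusted p up to 0.109).

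RPS26, at the exit of the mRNA channel, gave 379, 395 and 342 CPM and 309.9, 331 and 308 CPM in 2102 EP and 431, 427 and 483 CPM and 348, 380.4 and 407 CPM in TCam-2. The changes were -0.23 ± 0.08 (adjusted p = 0.0289) and -0.24 ± 0.08 (adjusted p = 0.0283), with no overlap between treatments. Both calls are lost with upper-quartile scaling. The first is also lost without DMSO replicate 1 or 2 or I-BRD9 replicate 1 or 3, and the second without DMSO replicate 3 or I-BRD9 replicate 1 or 2 (adjusted p up to 0.129 and 0.138).

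The genes with the most negative changes in 2102 EP were not those with the firmest calls, and their replicates lay far apart. RPS7, a 40S protein, had 745, 834 and 575 CPM with DMSO and 288, 560.2 and 517 CPM with I-BRD9, and its change of -0.66 ± 0.27 did not pass (adjusted p = 0.0887). RPS29, a small zinc-binding 40S protein, had 2515, 2701 and 1817 CPM and 944, 1984 and 1984 CPM, a change of -0.52 ± 0.28 (adjusted p = 0.192). RPL34 had 828, 986 and 699.9 CPM and 409, 656 and 599.5 CPM, a change of -0.59 ± 0.23 (adjusted p = 0.0766). In all 3 genes the lowest I-BRD9 value belonged to replicate 1. RPL27 and RPL30 showed the same library at the bottom (622, 963 and 1022 CPM and 588, 923 and 1009.7 CPM with I-BRD9, against 1259.8, 1311 and 1166 CPM and 1247, 1187 and 1079 CPM with DMSO). They passed narrowly, with changes of -0.52 ± 0.18 (adjusted p = 0.0472) and -0.48 ± 0.17 (adjusted p = 0.0468), and the calls held in 9 and 7 of the 21 alternatives (adjusted p up to 0.148 and 0.154). They are lost without any 1 of the DMSO replicates, without I-BRD9 replicate 2, and without most of the TCam-2 libraries (all but DMSO replicate 2 for RPL27, all for RPL30). RPL10A, which sits on the L1 stalk, went from 1405, 1459.8 and 1240.3 CPM to 888, 1180.1 and 1097 CPM (-0.38 ± 0.10, adjusted p = 0.0036), and its values in TCam-2 overlapped (1446, 1378 and 1501 CPM and 1362, 1267 and 1439 CPM).

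The genes of the stalk and of the 5S particle did not pass in either line. RPLP1, which with RPLP2 forms the stalk that recruits translation factors, was at 2337, 2415 and 2318 CPM and 2594, 2681 and 2605 CPM in 2102 EP and at 2731, 2684 and 2635 CPM and 3028, 2989.9 and 2828 CPM in TCam-2. The I-BRD9 libraries lay above the DMSO libraries in both lines, yet the changes of 0.16 ± 0.07 (adjusted p = 0.0916) and 0.14 ± 0.07 (adjusted p = 0.158) missed the threshold. RPLP0, the base of the stalk, changed by -0.04 ± 0.08 and 0.10 ± 0.08, and RPLP2 by 0.02 ± 0.08 and -0.12 ± 0.08. RPL5 and RPL11, which carry 5S rRNA into the ribosome and bind MDM2 when free, changed by -0.18 ± 0.08 and -0.12 ± 0.08 in 2102 EP and by -0.06 ± 0.08 and -0.11 ± 0.08 in TCam-2. RPS6, the substrate of the S6 kinases, changed by -0.20 ± 0.08 (adjusted p = 0.0642) and -0.11 ± 0.08 (adjusted p = 0.313). RPSA, which is also the laminin receptor precursor, was lower in 2102 EP (-0.25 ± 0.09, adjusted p = 0.0401), with overlapping libraries (450.3, 511 and 416 CPM against 383, 440.4 and 334 CPM), a call that held in 13 of the 21 alternatives (adjusted p up to 0.237). It is lost without DMSO replicate 1 or 2, I-BRD9 replicate 1 or 3, TCam-2 DMSO replicate 2 or TCam-2 I-BRD9 replicate 1.

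The effects of I-BRD9 in the 2 lines were compared by the difference of the log2 fold changes, TCam-2 minus 2102 EP. None of the 77 genes passed with edgeR, against a background of 13.1% of all genes called (5.9% higher and 7.19% lower). Of the 77 genes 3 had an unadjusted p under 0.05, and the lowest adjusted p was 0.0992. DESeq2 and limma voom also called 0. Leaving out replicate 2 of 2102 EP with I-BRD9 gave 1 call, RPL41 (-0.40, adjusted p = 0.0283), and leaving out replicate 3 of that group also gave 1. The standard error of a difference was 0.12 in the median gene, so differences of a size like that of the effects themselves cannot be told from 0 here. RPL41, which encodes a peptide of unusual shortness, had 6366, 7009.7 and 6287 CPM and 8127, 6456 and 7473 CPM in 2102 EP, where it did not pass (0.17 ± 0.09), and 6145, 6519 and 5779 CPM and 5362, 5561 and 5792 CPM in TCam-2 (-0.14 ± 0.09). Across the 77 genes, whose effects come from separate libraries in each line, the effects had Pearson's r = 0.68 and Spearman's rho = 0.60, and 60 had the same sign. Over the 518 other genes of such abundance r was 0.58, and 73.7% had the same sign. These are descriptions over genes that share libraries and depth.

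**Figure D2:**
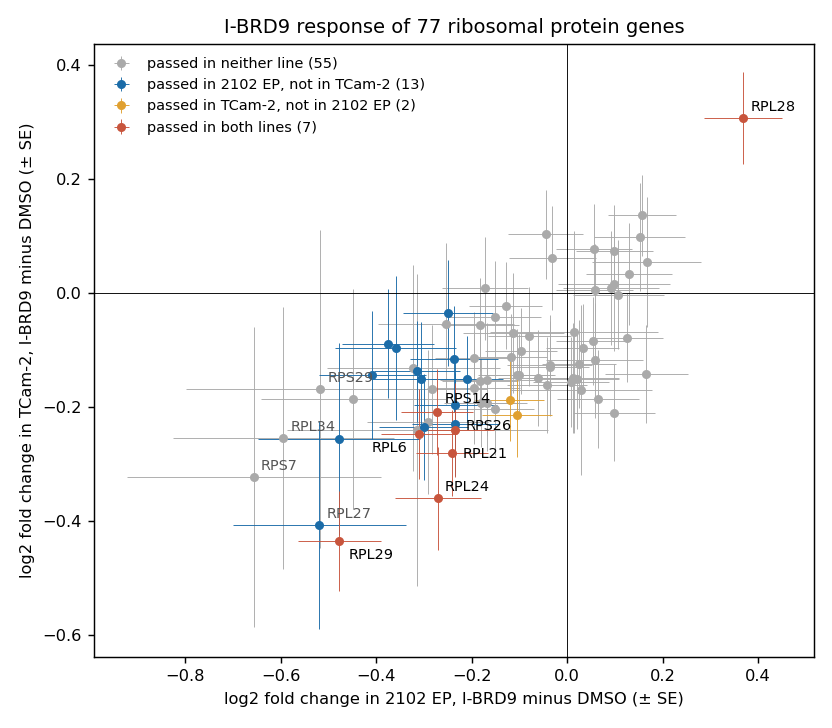
Log2 fold change under I-BRD9 in 2102 EP (x axis) and in TCam-2 (y axis) for the 77 genes, with standard errors as bars, coloured by the line in which the gene passed the test. RPL28 stands alone in the upper right at 0.37 and 0.31, while RPL29 lies at -0.48 and -0.44.

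Between the lines the ribosomal protein genes differed by more than under the drug. With DMSO, 39 of the 77 genes were higher and 13 lower in TCam-2 than in 2102 EP, or 67.5% of them, against a background of 62.6% of all genes called (31.7% higher and 30.8% lower). The share called was near that of all genes, but the calls leaned to higher: 50.6% of the 77 genes were higher and 16.9% lower. Among the 595 abundant genes, which include the 77, 38.8% were higher and 30.6% lower. The median log2 fold change was 0.23 (0.02 over all genes tested and 0.07 over the 595 abundant genes), and the SD over the 77 genes was 0.52, against 1.92 over all genes tested. Under other scalings the counts were 39 or 40 higher and 13 lower. In 42 of the 52 genes the call held in all 20 alternatives. The libraries of the lines did not overlap in 37 genes that were higher and 13 that were lower, against a background of 67.6% of all genes (34.1% higher and 33.4% lower).

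Of the 40S genes 18 were higher and 3 lower (RPS14, RPS25, RPS4X), with a median of 0.36. RPS23, a protein of the decoding centre, was at 1854, 2409 and 1874 CPM in 2102 EP and 3859, 4303 and 4449.5 CPM in TCam-2 (1.04 ± 0.10, adjusted p = 6.06e-09). RPS19, the gene most often mutated in Diamond-Blackfan anaemia, was at 1381, 1647 and 1390.5 CPM and 2833, 3017 and 3117 CPM (1.02 ± 0.09, adjusted p = 4.93e-10). For both genes all TCam-2 libraries lay above all 2102 EP libraries, and with I-BRD9 the differences were 1.05 ± 0.10 and 0.90 ± 0.08. RPS27A, made as a fusion with ubiquitin, had 3053, 4121 and 3367 CPM and 5680.2, 7271 and 7756 CPM (0.97 ± 0.15, adjusted p = 8.30e-05), with the wider spread in TCam-2. RPS6 had 2285, 2454 and 2176 CPM and 4017, 4009.7 and 4062 CPM (0.81 ± 0.08, adjusted p = 1.25e-08). RPS20 differed by 0.93 ± 0.08, RPS27 by 0.53 ± 0.08 and RPSA by 0.44 ± 0.09. RPS29 differed by 1.01 ± 0.28 (adjusted p = 0.0127), a call lost without replicate 3 of 2102 EP with DMSO (adjusted p = 0.0512). RPS4X, the X-linked copy of a gene with a Y-linked counterpart, was lower in TCam-2 (2300.1 ± 182 CPM against 2716 ± 291 CPM, -0.24 ± 0.10, adjusted p = 0.0336); the groups overlapped, and the call is lost without replicate 2 or 3 of 2102 EP or replicate 1 or 2 of TCam-2 (adjusted p up to 0.148).

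Of the 60S genes 21 were higher and 10 lower, with a median of 0.16. The stalk genes were all higher: RPLP2 went from 1185, 1289 and 1181 CPM in 2102 EP to 2711, 2606 and 2441 CPM in TCam-2 (1.09 ± 0.08, adjusted p = 3.79e-11), while RPLP0 differed by 0.25 ± 0.08 (adjusted p = 0.00792) and RPLP1 by 0.19 ± 0.07 (adjusted p = 0.0266, up to 0.107 and lost without replicate 1 or 3 of 2102 EP or replicate 1 or 2 of TCam-2). The estimate for RPLP2 was the largest of the 3, and differences between these genes were not tested. RPL10, which joins the 60S subunit late in its maturation, had 1180.2, 1219 and 1104 CPM and 2276, 2192 and 2124 CPM (0.91 ± 0.08, adjusted p = 1.50e-09). RPL22, an RNA-binding 60S protein, had 744, 805 and 798 CPM and 1238, 1229 and 1199 CPM (0.64 ± 0.07, adjusted p = 5.42e-08).

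The mRNAs of both proteins of the 5S particle were lower in TCam-2. RPL5 was at 3098, 3414 and 2986 CPM in 2102 EP and 1845, 1917 and 2053 CPM in TCam-2 (-0.71 ± 0.08, adjusted p = 1.05e-07), and RPL11 at 1921, 2161 and 1939 CPM and 1320.3, 1355 and 1414 CPM (-0.56 ± 0.08, adjusted p = 1.09e-06). No TCam-2 library reached a 2102 EP library in either gene, and the calls held in all 20 alternatives. RPL36A had the most negative difference of the 77: 951, 1093 and 865 CPM in 2102 EP and 312, 336 and 368 CPM in TCam-2 (-1.52 ± 0.10, adjusted p = 9.06e-12). RPL26, a 60S protein, followed with 1928, 2821 and 2298 CPM and 1029, 1288 and 1575 CPM (-0.86 ± 0.18, adjusted p = 0.00148). RPL39, which lines the peptide exit tunnel, had 1896, 1973 and 1805 CPM and 1208, 1085 and 1085 CPM (-0.75 ± 0.09, adjusted p = 1.67e-07). RPL27 (-0.72), RPL23 (-0.67), RPL23A (-0.58) and RPL32 (-0.53) were lower too, each past the threshold.

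When both lines were treated, 40 genes were higher and 14 lower in TCam-2 (70.1%), against a background of 62.2% (31.1% higher and 31.1% lower). Groups did not overlap in 41 higher and 11 lower genes, against a background of 66.3% (33.3% higher and 33% lower). The same 38 genes were higher and the same 13 lower with DMSO and with I-BRD9, in libraries that the comparisons do not share, and r between the differences was 0.96 over the 77 genes (0.93 over the 518 other abundant genes). RPL36A was again at the lower end (-1.49 ± 0.10), and RPL41 passed here (-0.40 ± 0.09, adjusted p = 0.000367) but not with DMSO (-0.09 ± 0.09, adjusted p = 0.368). RPL10A was higher with I-BRD9 (0.36 ± 0.10, adjusted p = 0.00229) and did not pass with DMSO (0.08 ± 0.10). Whether these differed between treatments is the difference of effects above, which neither gene passed (adjusted p = 0.106 and 0.182).

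**Figure D3:**
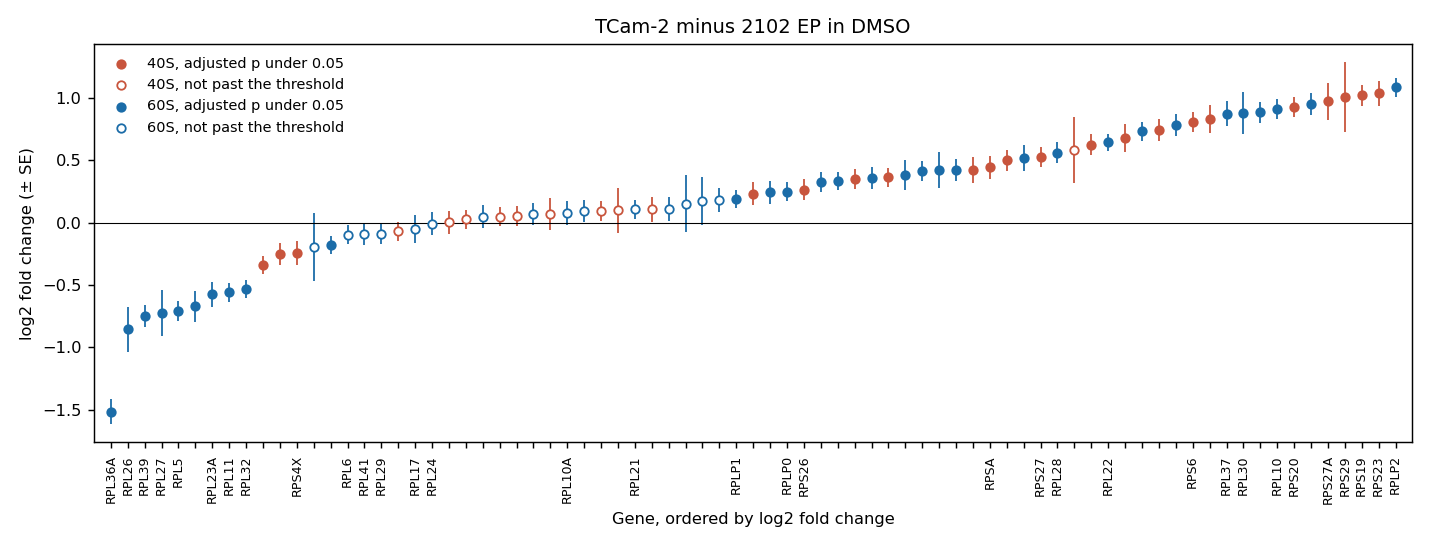
Log2 fold change of TCam-2 against 2102 EP with DMSO for the 77 genes in increasing order, with standard errors as bars; filled points passed the test, and the x axis names the genes of the naming rule. Values run from -1.52 for RPL36A to 1.09 for RPLP2, and 40S genes (red) make up 18 of the 39 higher genes and 3 of the 13 lower ones.

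The differences between the lines varied with where a gene lies. For each of the 77 genes the median log2 fold change of the other genes tested within 2 Mb on either side was taken (start positions from GENCODE release 29, GRCh38). Across the 77 genes, the gene's own difference and that of its neighbours had Pearson's r = 0.74 and Spearman's rho = 0.67, and 56 had the same sign. With windows of 1 Mb and 5 Mb r was 0.69 (74 genes with at least 5 neighbours) and 0.77, and with I-BRD9 at 2 Mb it was 0.77. For 510 other genes of such abundance r with DMSO at 2 Mb was 0.30 (rho 0.46). The same sign was seen in 343 of these (67.3%), beside 72.7% of the 77 genes. At 1 Mb the signs matched in 63.5% of the ribosomal protein genes and 66.1% of the others, and at 5 Mb in 68.8% and 68.1%. The neighbours' medians share the libraries with the genes, and genes on 1 chromosome share neighbours, so these are descriptions with no test. The response to I-BRD9 did not follow position in the same way: r was 0.04 in 2102 EP and 0.10 in TCam-2.

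RPL36A, on chromosome X, differed by -1.52 between the lines and its 32 neighbours by -1.60 in the median. RPL26 on chromosome 17 differed by -0.86 (78 neighbours, -1.31), RPL5 on chromosome 1 by -0.71 (26 neighbours, -0.66) and RPL11 on the same chromosome by -0.56 (38 neighbours, -0.44). At the upper end were RPS20 on chromosome 8 (0.93, 12 neighbours at 0.94), RPL30 on chromosome 8 (0.88, 15 neighbours at 1.03), RPL37 on chromosome 5 (0.87, 10 neighbours at 1.10) and RPS6 on chromosome 9 (0.81, 12 neighbours at 0.94). By chromosome, all 4 genes on chromosome 8 were higher in TCam-2. The other 519 genes tested there had a median of 0.75, and 62.8% of them were higher and 12.1% lower. On chromosome 17, 4 of 6 were lower, where the other genes had a median of -0.41 and 47.8% of them were lower. On chromosome X 3 of 4 were lower (median of other genes -0.43, 47.3% of them lower), RPL10 being the exception with neighbours at 0.77. DNA copy number was not analysed here, and its part in these values was not tested.

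Not all genes sat near their neighbours. Of the 77 genes 42 lay within 0.25 of the neighbours' median and 58 within 0.5, and the median of the gene minus its neighbours was 0.19. RPS19 (1.02 against -0.23), RPS23 (1.04 against -0.13) and RPL22 (0.64 against -0.43) lay above them. RPL39 on chromosome X lay below with DMSO (-0.75 against 0.13), but near its neighbours with I-BRD9 (-0.57 against -0.45). RPL3, alone on chromosome 22, stood at 0.24 with neighbours at -0.73 with DMSO. Of the 12 genes on chromosome 19, 7 were higher and 1 lower while the other genes there had a median of -0.09. Of those other genes 25.5% were higher and 33.4% lower.

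**Figure D4:**
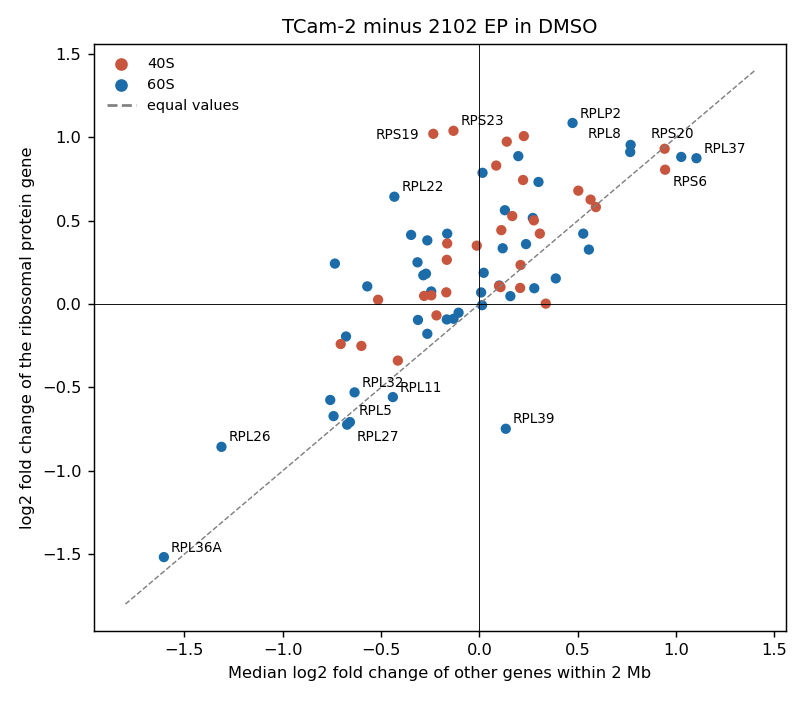
Log2 fold change of each of the 77 genes between TCam-2 and 2102 EP with DMSO (y axis) against the median log2 fold change of the other genes tested within 2 Mb (x axis); the dashed line marks equal values. RPL36A lies at -1.52 and -1.60 near the line, and RPS19, RPS23 and RPL22 lie above it, RPL39 below.

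Some ribosomal proteins have another gene with a similar product, and the balance between the copies differed between the lines in some pairs but not in all. With DMSO, RPS27L took 35.6%, 33.1% and 40.4% of the counts of its pair in 2102 EP. In TCam-2 it took 31.8%, 34.0% and 31.6%, so the lines overlapped, as they did for RPL26L1. RPL36AL, an autosomal copy of the X-linked RPL36A, took 14.4%, 12.9% and 13.5% of the pair's counts in 2102 EP with DMSO and 44.4%, 43.8% and 46.1% in TCam-2. It was at 152 ± 14.7 CPM and 275 ± 35.1 CPM, and so higher in TCam-2 (0.85 ± 0.16, adjusted p = 0.00061), where RPL36A was lower. RPL22L1, the copy of RPL22, took 17.5% ± 3.11 of its pair in 2102 EP with DMSO, 7.51% ± 2.96 with I-BRD9, and 1.57% and 1.28% in TCam-2. With I-BRD9 it fell in 2102 EP from 184, 186 and 129 CPM to 30.5, 74.2 and 72.2 CPM (-1.48 ± 0.34, adjusted p = 0.00881, and 0.052 with the 6 libraries of the line alone), and with DMSO it was lower in TCam-2 (19.0, 16.6 and 22.9 CPM, -3.10 ± 0.37, adjusted p = 9.11e-05), the reverse of RPL22.

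RPL7L1 took 21.8%, 21.7%, 9.69% and 9.08% of its pair with RPL7 in the 4 groups, and was lower in TCam-2 (-1.04 ± 0.13, adjusted p = 1.82e-06). RPL7L1 had a count that was not whole in all 12 libraries, so reads were split there. RPS27L, similar to RPS27 in sequence, rose with I-BRD9 in 2102 EP (308, 288 and 347 CPM to 411, 342 and 393 CPM, overlapping, 0.28 ± 0.09, adjusted p = 0.0157, lost without DMSO replicate 1 or 2, up to 0.101). It fell in TCam-2 (386, 396 and 364 CPM to 305, 307 and 263 CPM, -0.39 ± 0.09, adjusted p = 0.00159), and the difference of the effects passed (-0.67 ± 0.13, adjusted p = 0.000637). RPS27 did not pass in either line (0.05 ± 0.08 and -0.09 ± 0.08). RPL26L1 fell in 2102 EP (-0.30 ± 0.11, lost without DMSO replicate 1 or 2 or I-BRD9 replicate 1, adjusted p up to 0.189) and did not pass in TCam-2 (0.23 ± 0.11). The difference of its effects passed (0.53 ± 0.15, adjusted p = 0.0226), but is lost without 2102 EP DMSO replicate 2 or I-BRD9 replicate 1, or without TCam-2 DMSO replicate 2 or 3 or I-BRD9 replicate 3 (up to 0.0854). RPL39L was lower with I-BRD9 in TCam-2 (-0.37 ± 0.14, adjusted p = 0.0446, kept in 8 of 21 alternatives: lost with DESeq2, limma voom, upper-quartile scaling and the replicate block, and without any 1 TCam-2 library or 2102 EP DMSO library, up to 0.175). RPL10L, a copy expressed in the testis, was lower in TCam-2 than in 2102 EP with DMSO (1.13 ± 0.524 against 6.12 ± 1.29 CPM, -2.44 ± 0.39). RPL3L, the form of striated muscle, had 5, 4 and 10 counts in 2102 EP with DMSO, 23, 28 and 38 with I-BRD9, and 0 in each TCam-2 library with DMSO. With a floor of 3 counts over the group it was at least 6.75-fold lower in TCam-2 with DMSO. Of the 8 copies 2 rose and 2 fell with I-BRD9 in 2102 EP, and in TCam-2 none rose and 2 fell, where 18.2% and 18.6% of all genes rose and fell in the first line and 15.3% and 16.5% in the second.

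**Figure D5:**
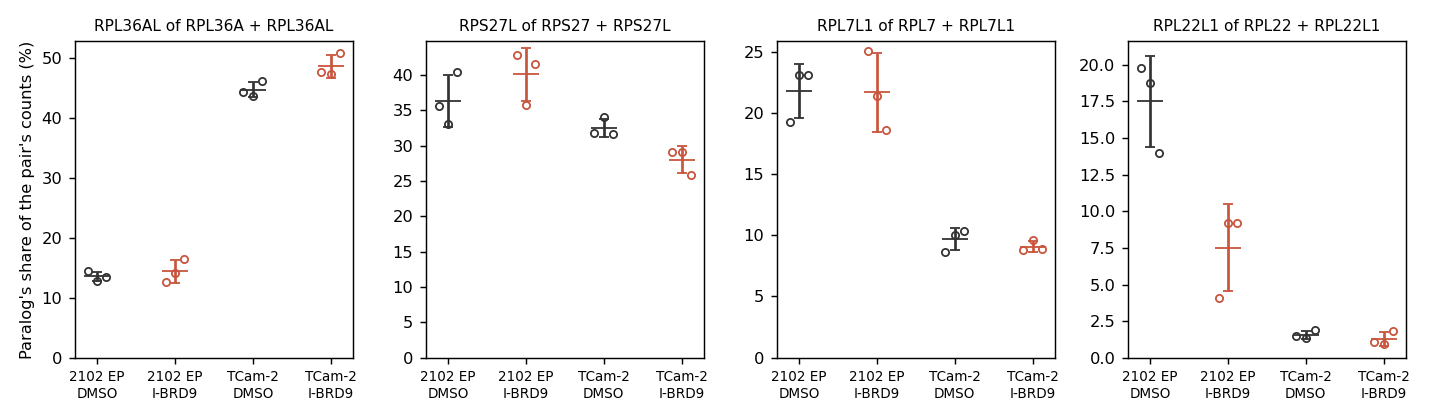
Share of the pair's counts (%) taken by 4 ribosomal protein paralogs in each group; circles are libraries, bars the mean and SD of 3 libraries. RPL36AL takes 13.6% of its pair in 2102 EP and 44.8% in TCam-2 with DMSO, and RPL22L1 goes from 17.5% to 7.51% with I-BRD9 in 2102 EP.

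FAU was at 1411, 1466 and 1337 CPM and 1189, 1263 and 1274 CPM in 2102 EP (-0.18 ± 0.08, adjusted p = 0.082) and at 2480.3, 2125 and 2438 CPM and 1866, 1885 and 1853 CPM in TCam-2, where it fell (-0.33 ± 0.08, adjusted p = 0.0023). Between the lines FAU was higher in TCam-2 (0.74 ± 0.08, adjusted p = 2.70e-08).

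Of 16 other genes of the TOP class, mostly translation factors, 3 rose and 8 fell with I-BRD9 in 2102 EP, and 2 rose and 1 fell in TCam-2 (medians -0.24 and -0.03). As shares that is 18.8% higher and 50% lower in 2102 EP and 12.5% and 6.25% in TCam-2, beside 18.2% and 18.6% of all genes in the first line and 15.3% and 16.5% in the second. Of the 595 abundant genes, to which most of the 16 belong, 13.6% rose and 34.6% fell in 2102 EP. In TCam-2 it was 12.1% and 34.5%. EEF1B2, a subunit of the exchange factor of eEF1A, fell in both lines (-0.33 ± 0.10, lost without 2102 EP DMSO replicate 2 or I-BRD9 replicate 1 with adjusted p up to 0.121, and -0.42 ± 0.10) and was higher in TCam-2 than in 2102 EP with DMSO (1.44 ± 0.10). PABPC1, the cytoplasmic poly(A)-binding protein, fell in 2102 EP (-0.27 ± 0.08, adjusted p = 0.00632) and rose in TCam-2 (0.30 ± 0.08, adjusted p = 0.00413). The difference of the effects passed in 25% of the 16, all in the positive direction, beside 5.9% higher and 7.19% lower of all genes. Of the 595 abundant genes 9.41% were higher and 9.24% lower by this difference. It passed for PABPC1, EIF3E, HNRNPA1 and EIF4B, while none of the 77 ribosomal protein genes passed the test of this difference. The call of PABPC1 held in all 20 alternatives, and those of EIF3E, HNRNPA1 and EIF4B were each lost without most single libraries (adjusted p up to 0.101, 0.107 and 0.141). EEF1D, another subunit of the same exchange factor, rose in 2102 EP (0.53 ± 0.17, adjusted p = 0.026, lost with the library-code block and without DMSO replicate 1 or 3 or I-BRD9 replicate 1 or 2, up to 0.0867). EIF3H, a subunit of eIF3, fell there (-0.50 ± 0.15, adjusted p = 0.0219, lost without DMSO replicate 1 or 2 or TCam-2 DMSO replicate 1, or with the 6 libraries of the line, up to 0.1).

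Between the lines with DMSO 7 of the 16 TOP genes were higher in TCam-2 and 2 lower (43.8% and 12.5%, beside 31.7% and 30.8% of all genes). TPT1 (0.87 ± 0.08), EEF1G (0.73 ± 0.10) and EEF1D (0.72 ± 0.17) were among the higher ones. With I-BRD9, EIF3H (0.96 ± 0.15) and EEF1A1 (1.13 ± 0.33), the factor that brings aminoacyl-tRNA to the ribosome, were higher too, and the call of EEF1A1 is lost without TCam-2 I-BRD9 replicate 3 (adjusted p = 0.0626). Of 10 hosts of small nucleolar RNAs, whose transcripts often begin with the same motif, 2 rose in each line, SNHG12 (0.65 ± 0.11 and 0.48 ± 0.12) and SNHG29 (0.30 ± 0.08 and 0.23 ± 0.08). SNHG8 (-0.40 ± 0.11) and SNHG16 (-0.28 ± 0.09) fell in 2102 EP, and none fell in TCam-2, so that 20% rose and 20% fell in 2102 EP and 20% rose in TCam-2, near the 18.2%, 18.6% and 15.3% of all genes. SNHG5 was higher in TCam-2 with DMSO (1.19 ± 0.11), among 6 of the 10 hosts that were higher, with 3 lower (60% and 30%, beside 31.7% and 30.8% of all genes). The calls of SNHG29 in TCam-2 (without DMSO replicate 2 or 3 or I-BRD9 replicate 1 or 2) and of SNHG16 (without DMSO replicate 2 or I-BRD9 replicate 3) are lost, with adjusted p up to 0.105 and 0.105.

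Of 15 genes of mTORC1 and its route to TOP mRNA, 4 rose and 6 fell in 2102 EP, and none rose and 2 fell in TCam-2. The shares were 26.7% higher and 40% lower in 2102 EP, beside 18.2% and 18.6% of all genes, and 13.3% lower in TCam-2, beside 16.5%. LARP1, which binds the TOP motif, was at 538, 548 and 583 CPM and 460.2, 451 and 436 CPM in 2102 EP (-0.31 ± 0.07, adjusted p = 0.00203). In TCam-2 it was at 581, 639 and 628 CPM and 498, 489 and 485 CPM (-0.33 ± 0.07, adjusted p = 0.00137), and LARP4 fell in both lines as well (-0.32 ± 0.09 and -0.27 ± 0.10). LARP1B fell in 2102 EP (-0.73 ± 0.10, adjusted p = 6.25e-06) and stood at -0.01 ± 0.11 in TCam-2. TSC1, an upstream inhibitor of mTORC1, rose in 2102 EP (0.58 ± 0.15, adjusted p = 0.00308), and RHEB, its activating GTPase, fell (-0.64 ± 0.19, adjusted p = 0.015). MTOR itself did not pass in either line (0.14 ± 0.10 and 0.08 ± 0.10). With DMSO, 3 of the 15 were higher and 6 lower in TCam-2 than in 2102 EP (20% and 40%, beside 31.7% and 30.8% of all genes). The S6 kinase gene RPS6KB2 (1.32 ± 0.15) and RPTOR (0.86 ± 0.15), which encodes the subunit that binds mTORC1 substrates, were higher, and with I-BRD9 AKT1S1 was lower (-0.73 ± 0.14). In 2102 EP the call of LARP4 is lost without DMSO replicate 1 or I-BRD9 replicate 2 and that of RHEB without DMSO replicate 1 or 2 (adjusted p up to 0.0817 and 0.108). In TCam-2 that of LARP4 is lost without DMSO replicate 2 or 3 or I-BRD9 replicate 2 or 3 (up to 0.148).

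Ribosome biogenesis genes supply the factors that process rRNA and assemble both subunits. Of 26 such genes none rose and 10 fell in 2102 EP, and none rose and 19 fell in TCam-2, with medians of -0.16 and -0.37. That is 38.5% and 73.1% lower, beside 18.6% and 16.5% of all genes and 34.6% and 34.5% of the 595 abundant genes. Most of the 26 are less abundant than those 595 (in 2102 EP with DMSO RRN3 was at 18.8 CPM and WDR12 at 81.6 CPM), so the 595 are not matched to them in level. NOP16, a nucleolar 60S factor, fell in both lines (-0.85 ± 0.13 and -0.89 ± 0.13), as did BRIX1 (-0.53 ± 0.10 and -0.82 ± 0.10) and WDR12 (-0.61 ± 0.10 and -0.52 ± 0.09). RRP9, which binds U3 RNA, went from 102, 81.8 and 80.9 CPM to 48.9, 51.4 and 44.4 CPM in TCam-2 (-0.87 ± 0.10) and from 77.7, 77.8 and 71.1 CPM to 66.1, 56.2 and 61.0 CPM in 2102 EP (-0.31 ± 0.10). RRN3, which recruits RNA polymerase I to the rRNA genes, fell in 2102 EP (-0.69 ± 0.24, adjusted p = 0.0319, lost without DMSO replicate 1 or 2 or I-BRD9 replicate 1 or 3, up to 0.13), and NOL6 fell in TCam-2 (-0.62 ± 0.10). With DMSO, 4 of the 26 were higher and 8 lower in TCam-2 than in 2102 EP (15.4% and 30.8%, beside 31.7% and 30.8% of all genes). PES1 (-0.97 ± 0.09), RRP12 (-0.94 ± 0.10) and EBNA1BP2 (-0.84 ± 0.09) were lower, NOL6 was higher (0.63 ± 0.10), and with I-BRD9 POLR1C, a subunit of RNA polymerases I and III, was lower (-0.80 ± 0.11).

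Of 7 dedicated chaperones of ribosomal proteins 1 rose and 3 fell in 2102 EP and 4 fell in TCam-2 (42.9% and 57.1% lower, beside 18.6% and 16.5% of all genes). LTV1 (-0.35 ± 0.11 and -0.65 ± 0.11) and PDCD2 (-0.31 ± 0.09 and -0.59 ± 0.11), both of which serve the 40S subunit, fell in both lines. HEATR3, which brings RPL5 to the nucleus, rose in 2102 EP (0.47 ± 0.11, adjusted p = 0.00136) and did not pass in TCam-2 (-0.07 ± 0.10). BCCIP (-0.48 ± 0.10) and GRWD1 (-0.33 ± 0.10, lost without I-BRD9 replicate 3, adjusted p = 0.0592) fell in TCam-2, and TSR2, the chaperone of RPS26, in 2102 EP (-0.26 ± 0.08, lost without I-BRD9 replicate 2, adjusted p = 0.052). With DMSO, 2 chaperones were higher and 3 lower in TCam-2 than in 2102 EP (28.6% and 42.9%, beside 31.7% and 30.8% of all genes), TSR2 by -1.24 ± 0.08 and GRWD1 by -0.51 ± 0.10 among the lower ones, and with I-BRD9 BCCIP was lower as well (-0.54 ± 0.10). In 2102 EP the calls of RRP9 (without DMSO replicate 1 or 2 or I-BRD9 replicate 2), LTV1 (without DMSO replicate 2 or 3 or I-BRD9 replicate 3) and PDCD2 (without DMSO replicate 2 or I-BRD9 replicate 3) are lost, with adjusted p up to 0.107, 0.0975 and 0.0693.

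The 78 genes of the mitochondrial ribosome, named alike but made for another compartment, gave 9 higher and 28 lower in 2102 EP and 6 higher and 27 lower in TCam-2. As shares that is 11.5% higher and 35.9% lower in the first line, beside 18.2% and 18.6% of all genes, and 7.69% and 34.6% in the second, beside 15.3% and 16.5%. Their medians of -0.19 in both lines lay beside -0.13 and -0.14 for the cytosolic genes, and their SD over genes was 0.39 and 0.31 against 0.20 and 0.12. MRPL15 (-0.88 ± 0.08 and -0.64 ± 0.08) and MRPL18 (-0.65 ± 0.12 and -1.33 ± 0.13) fell in both lines, and MRPS6 (0.57 ± 0.08 and 0.51 ± 0.09) and MRPL53 (0.61 ± 0.11 and 0.39 ± 0.11) rose. MRPL32 also fell in both (-0.84 ± 0.17 and -0.61 ± 0.18, the second lost without TCam-2 DMSO replicate 2 or I-BRD9 replicate 1, adjusted p up to 0.0676), MRPL49 in 2102 EP (-0.79 ± 0.20) and MRPL12 in TCam-2 (-0.60 ± 0.12). MRPL2 had the most negative change of the list in 2102 EP (-1.68 ± 0.49, adjusted p = 0.0255), a call lost without DMSO replicate 1 or 2, with no filter or with the 6 libraries of the line (adjusted p up to 0.106). Between the lines with DMSO 12 were higher and 37 lower in TCam-2, or 15.4% and 47.4%, beside 31.7% and 30.8% of all genes and against 39 and 13 of the 77 cytosolic genes, in the same libraries. MRPS25 (-1.23 ± 0.08), MRPL45 (-1.21 ± 0.25) and MRPS28 (-1.07 ± 0.16) were among the lower ones, and with I-BRD9 MRPL40 (-1.09 ± 0.10).

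Reads of ribosomal protein genes can come from their many processed pseudogenes. A count that was not whole, within 0.01, marks reads split between genes: 28 of the 77 genes had such a count in all 12 libraries, 65 in at least 1, and 12 in none. Of 1596 pseudogenes recognised by symbol 780 had a count, and together they took 0.280%, 0.296%, 0.244% and 0.247% of all counts in the 4 groups. Their share of the joint count passed 5% for RPL6 (28.9%), RPL10 (24.1%), RPL5 (14.8%), RPLP0 (9.12%) and RPL23A (6.73%), whose values are uncertain to that extent. Loci that join a ribosomal protein gene with another gene by symbol are not in this share. RPL17-C18orf32 held 11339 counts and RPS10-NUDT3 17573 over the 12 libraries, and RPL36A-HNRNPH2 held none. How far such loci share reads with RPL17 and RPS10 was not tested. Adding the pseudogene counts to their parent genes left 1 higher and 19 lower in 2102 EP, 1 and 8 in TCam-2, and 39 and 14 between the lines with DMSO. Levels here are counts of 3′ ends and not per length, so levels of different genes are not ranked.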

How the data were processed

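RNA of 12 libraries (4 groups of 3) was read from 3′ ends. The authors deposited 1 table of estimated counts per gene for 63241 genes, made by Salmon, and the submitters' processing notes name Trim Galore, STAR 2.7.11b, Salmon 1.9.0, R 4.2.0, DESeq2 and the build GRCh38. The sources used here do not state the annotation, the strand setting or the order of steps. Values were rounded to integers, since the deposited estimated counts need not be whole, and 15614 genes passed the low-count filter of edgeR 4.0.16 (filterByExpr, R 4.3.3), all 77 ribosomal protein genes among them. Libraries were scaled by TMM, the 4 group means were fitted over all 12 libraries (8 residual degrees of freedom), and quasi-likelihood tests gave 5 comparisons with Benjamini-Hochberg adjustment over all 15614 genes. Genes with an adjusted p under 0.05 were called. A log2 fold change is given as estimate ± SE, and levels as TMM-scaled CPM per library. The tests were tried first on simulated data.

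The members, gene lists and tests were chosen with earlier results of these data known. Named in the text by rule are the 5 ribosomal protein genes with the most positive and the 5 with the most negative change per comparison, called and with groups that do not overlap, and RPL5, RPL11, RPSA, RPLP0, RPLP1, RPLP2, RPS4X, RPL10, RPL22, RPL39, RPS27, RPS6, RPL41 and RPS27A. The rule adds FAU, the 8 paralogs, BRD9 and up to 4 called genes with the largest change per comparison from each other list. Other genes named with values, such as RPS14, RPS7, RPL34, RPL23, RPL3 and MTOR, were chosen after their values were seen. Some genes are not reported here. Alternatives were DESeq2 1.42.0, limma 3.58.1 voom, other scalings, no filter, replicate and library-code blocks, added pseudogene counts, the 6 libraries of a line, and leaving out each of the 12 libraries. Windows of 1 and 5 Mb and the promoter search with any first base were added after seeing the data. No column of another sample was in the table (0 left out). Total counts of 7290335 to 10053366 per library and 3 libraries per group set the precision.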

Additional observations from a re-analysis of the deposited data

Results flagged for a closer look

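These genes outside the ribosomal protein list passed the test of the difference of the I-BRD9 effects, given as the effect in TCam-2 minus that in 2102 EP on the log2 scale with edgeR's adjusted p. More negative in TCam-2 were the paralog RPS27L (-0.67, adjusted p = 0.000637), the U3 RNA-binding factor RRP9 (-0.56, adjusted p = 0.0104), HEATR3, which imports RPL5 (-0.54, adjusted p = 0.0175), and the mitochondrial ribosomal protein genes MRPL18 (-0.69, adjusted p = 0.0123), MRPL41 (-0.63, adjusted p = 0.000836), MRPL40 (-0.44, adjusted p = 0.0464) and MRPL27 (-0.41, adjusted p = 0.025). More positive were EIF3E (0.35, adjusted p = 0.029), HNRNPA1 (0.38, adjusted p = 0.038), EIF4B (0.39, adjusted p = 0.0324), RPL26L1 (0.53, adjusted p = 0.0226), PABPC1 (0.57, adjusted p = 0.000643) and LARP1B (0.73, adjusted p = 0.00168). RPS27L, RRP9, MRPL18, MRPL41, PABPC1 and LARP1B kept their call in all 20 alternatives. MRPL40 kept it in 7 (adjusted p up to 0.114), and MRPL27 lost it without 2102 EP DMSO replicate 1 or TCam-2 I-BRD9 replicate 1 (up to 0.07). HEATR3 lost it narrowly without 2102 EP DMSO replicate 1 or TCam-2 DMSO replicate 1 (adjusted p up to 0.0509).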

How the results depend on the processing

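In 2102 EP, 19 genes were lower with I-BRD9 and upper-quartile scaling or the 6 libraries of the line alone gave 10, DESeq2 26 and limma voom 27. Leaving out 1 library gave 5 to 19, with 5 without DMSO replicate 2. The 1 higher gene became 2 with DESeq2, upper-quartile scaling and limma voom, and 1 to 2 with a library left out. In TCam-2 the 8 lower genes became 14 with DESeq2 and limma voom, 4 with upper-quartile scaling, 5 with no filter, 19 with the 6 libraries of the line and 4 to 18 with a library left out, and the 1 higher gene became 2 with DESeq2 and limma voom. The difference of the effects gave 0 lower genes and 0 to 1 with a library left out. The causes were not tested. Shares with mitochondrially encoded genes left out of the total were 13.3%, 13.3%, 15.3% and 14.9%, against 12.1%, 11.8%, 14.2% and 13.9%. Between the lines with DMSO, 33 to 41 genes were higher and 11 to 13 lower with a library left out, and with I-BRD9 36 to 40 and 12 to 15. The replicate numbers showed no pairing of the samples (correlations of same-numbered libraries between groups -0.12 to 0.16). The library codes order TCam-2 DMSO replicates 1 and 2 the other way, and libraries matched between groups by code gave -0.12 to 0.13. With the replicate block 1 gene was higher and 16 lower in 2102 EP, 1 and 8 in TCam-2, 0 and 0 for the difference, and 39 and 13 between the lines with DMSO. No named gene reversed. Over all named genes and comparisons 9602 settings gave the same call, 275 lost one and 116 gained one, where the same call includes genes that stayed uncalled. Of the 20 ribosomal protein genes called under I-BRD9 in 2102 EP, 15 lost the call in at least 1 setting, and 5 of 9 did in TCam-2. Between the lines 10 of 52 lost it with DMSO and 9 of 54 with I-BRD9. With 3 libraries a group the median standard error of a log2 fold change was 0.09, and 0.12 for the difference of the effects, which limits the changes that can be told from 0.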

Other observations

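Of 19 genes of the list mutated in Diamond-Blackfan anaemia, an inherited failure of red cell production, none rose and 4 fell with I-BRD9 in 2102 EP, and none rose and 1 fell in TCam-2. Between the lines with DMSO 8 were higher and 5 lower in TCam-2, with a median log2 fold change of 0.10. The shares lower with I-BRD9, 21.1% and 5.26%, stand beside 18.6% and 16.5% of all genes, and the 42.1% higher and 26.3% lower between the lines beside 31.7% and 30.8%.

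The coefficient of variation over the 3 libraries of a group had a median over the 77 genes of 8.26% in 2102 EP with DMSO, 10.2% with I-BRD9, 5.58% in TCam-2 with DMSO and 4.70% with I-BRD9. Over the abundant genes it was 6.02%, 8.44%, 5.31% and 4.96%. The highest values belonged to RPL19 in 2102 EP with DMSO (29.2%) and RPS29 in 2102 EP with I-BRD9 (36.6%), and in TCam-2 to RPL26 (21.1%) and RPL34 (24.0%).

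DEPTOR, an inhibitory subunit of mTOR complexes, had 24, 18 and 25 counts in 2102 EP with DMSO and 0, 7 and 1 with I-BRD9 (-3.12 ± 0.67, edgeR adjusted p = 0.000765).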
